A study of Mus musculus with 8 samples.

Results

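Germline and meiosis genes are the subject here: 34 listed mouse genes of germ cell identity, meiotic chromosomes and the piRNA pathway, out of 24921 gene names counted. They were taken from a fixed list of symbols, and the deposited reads of each were summed over its RefSeq accessions. All 34 were found in the tables, 24 had enough reads to be tested, 5 had between 6 and 39 reads over all libraries, and 5 had none. Poly(A) RNA of V6.5 mouse embryonic stem (ES) cells, a C57BL/6-129 line grown in 2i medium on gelatin per the labels, was read from one end over 40 bases in 8 libraries, 2 in each of 4 groups. The first pair of groups came from a V6.5 line in which OCT4 is fused to FKBP, a tag that lets a dTAG compound draw the fusion protein to degradation. It received DMSO for 24 h or the compound labelled dTag9 for 24 h, called dTAG here. The second pair came from untagged V6.5 cells, called WT, with normal LIF or with LIF withdrawn for 5 days. The labels do not say whether the inhibitors of 2i stayed in the medium during the withdrawal, whether the tagged line is 1 clone, or whether replicates came from separate cultures. So p-values reflect only how far these libraries differ within a group, and that may be technical. Untagged cells with dTAG are not among the groups, so effects of the compound and of OCT4 loss cannot be told apart.

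Germ cells make a set of proteins that other cells do not. RNA-binding proteins such as DAZL and DND1 control germ cell messages. The synaptonemal complex holds homologous chromosomes together, and meiotic cohesin holds sister chromatids together. PIWI proteins loaded with small piRNAs silence transposons. In somatic cells many of these genes are kept silent by promoter DNA methylation and by the PRC1.6 complex, which reaches DNA through E2F6 and the MGA-MAX pair, and mouse ES cells are known to transcribe some of them. OCT4 and LIF-STAT3 signalling both sustain the ES cell state.

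Libraries held 7221451 to 11447468 counted reads, of which 3028 to 11076 per library fell on the 34 genes. Levels are CPM (read counts scaled to the library size after TMM adjustment), and each pair of values below gives replicate 1 and then replicate 2. Changes come from edgeR's quasi-likelihood test in one fit of all groups, and a gene is said to have risen or fallen where its Benjamini-Hochberg adjusted p over 10311 tested genes was under 0.05. In these bulk libraries, fewer cells of a type and less RNA per cell cannot be told apart. ES cell markers (9 genes) summed to 7098 to 7162 CPM in DMSO, 2479 to 2487 with dTAG, 7679 to 7680 in WT with LIF and 1274 to 1305 without LIF. Tfcp2l1 alone gave 3573 CPM in DMSO and 3179 in WT with LIF (group means). In each treatment 8 of the 9 genes fell. Pou5f1 was not called with dTAG, and Utf1 rose without LIF from 55.1 to 234 CPM. Fibroblast markers (7 genes) summed to 8.92 to 9.29 CPM with LIF, 19.8 to 20.4 without it, 21.3 to 23.4 in DMSO and 16.2 to 19.2 with dTAG, with Postn and Dcn at 0 reads in all libraries; both have several accessions, so their 0 says nothing of expression. Two-cell-like markers (4 genes in the files) summed to 0.353 to 0.823 CPM with LIF and 3.41 to 4.61 without, and to 0.281 to 0.528 in DMSO and 0 to 0.219 with dTAG. Of 8 late spermatocyte and spermatid markers, 5 had 0 reads in every library, the protamine genes Prm1 and Prm2 among them. The part of these marker changes in the results below was not tested.

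Read depth was uneven across the genes. The counting gave no read to a transcript accession where the sequence is shared with another accession, so genes with several accessions keep only reads from sequence particular to one. All 5 genes without a read (Tex14 of germ cell bridges, the piRNA factors Tdrkh, Tdrd1, Tdrd6 and Fkbp6) have 2 or more accessions, and their 0 says nothing of expression. Of the 24 tested genes, 19 have 1 accession. The other 5 (Dazl, Brdt, Tex11, Ddx4 and Tdrd5) are measured only in their accession-specific sequence. The same holds for Hormad1, Zcwpw1 and Nanos3, which had too few such reads to be tested. The filter kept genes with about 1.07 CPM in at least 2 libraries, and 15 of the 24 reached that in all 8. Another 5 reached it in both libraries of 1 group only: Sycp2, Ddx4 and Tdrd5 without LIF, Slc25a31 with dTAG and Dazl in DMSO. These genes had to be high in that group to be tested, so counts over the tested genes, and the size of these genes' own changes into or out of that group, are descriptions only. The exons of Sycp3, Dnd1 and Tdrd5 overlap those of a gene on the opposite strand (Chpt1, Wdr55 and 4930518J20Rik), and whether strand was used in counting is not stated, so reads in the overlap are uncertain. Tex19.1 has a close paralog, Tex19.2, and reads could be split between them.

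Most reads on the list came from 5 genes. Rnf17, which encodes a tudor protein of spermatids, Tdrd12, a tudor helicase-like piRNA factor, Tex19.1, a germline protein that restrains transposons, Stag3, a meiotic cohesin subunit, and Tex15, a factor of recombination repair and transposon silencing, held 77.4% of all reads on the list. Per kilobase of transcript, which allows levels of different genes to be compared, Tdrd12 stood first in WT with LIF at 172 RPKM (CPM per kilobase, for genes with 1 accession), ahead of Tex19.1 at 48.3, Rnf17 at 36.6, Stag3 at 25.3 and Sohlh2 at 20.1 (means of 2 libraries). Without LIF the order became Tdrd12 at 27.1 RPKM, Rnf17 at 16.9, Tex19.1 at 15.8, Stag3 at 11.3 and Sycp3 at 9.24. The libraries of Rnf17 (16.1 and 17.8 RPKM) and Tex19.1 (16.9 and 14.8 RPKM) overlapped there, so their order is not set. In DMSO, Tdrd12 at 84.1 RPKM and Tex19.1 at 72.3 came before Rnf17 at 58.2, and with dTAG Tex19.1 at 82.8 and Rnf17 at 58.3 came before Tdrd12 at 23.7.

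**Figure D1:**
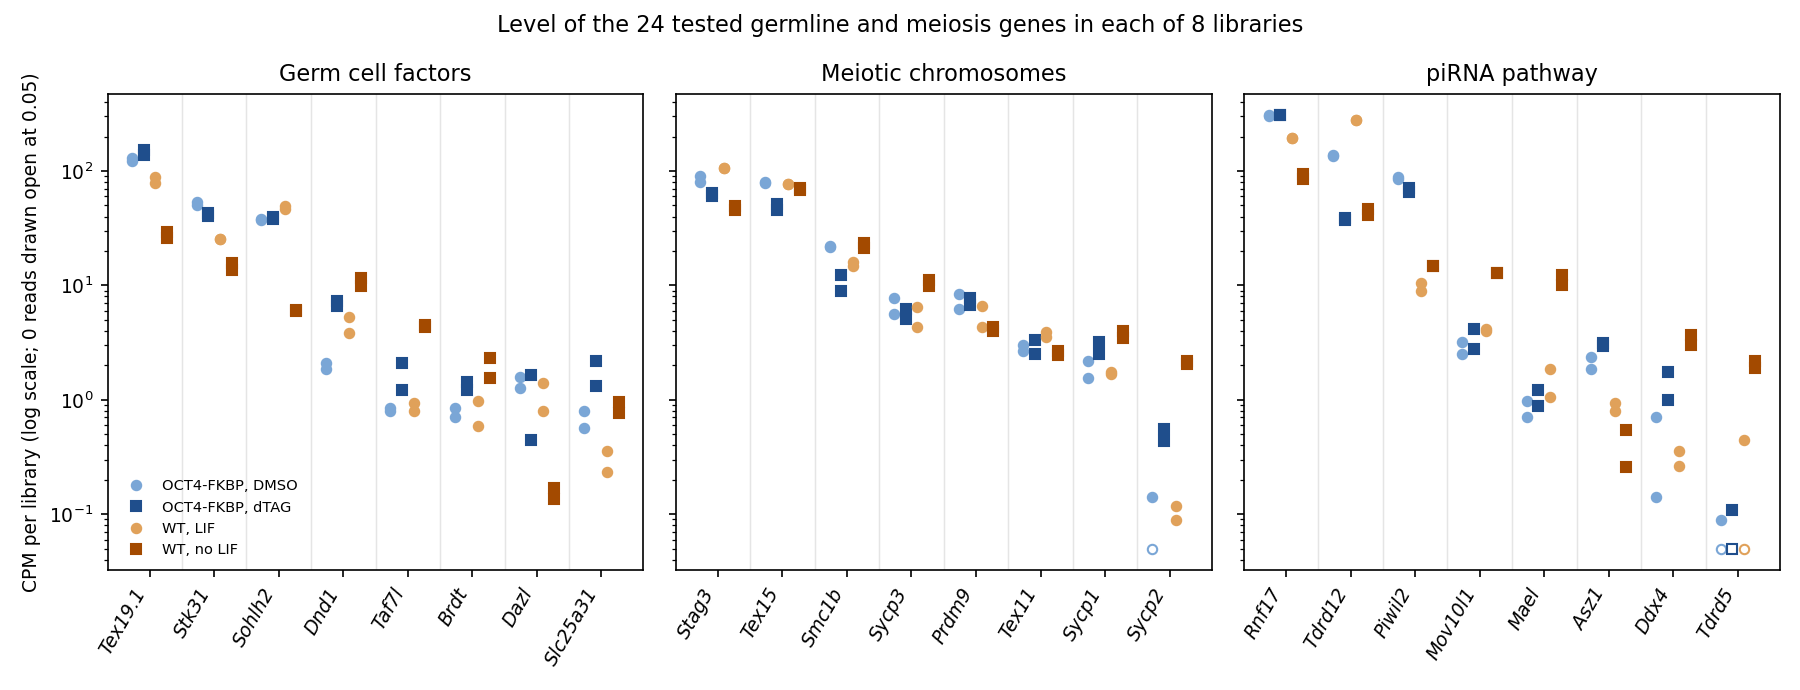
Level of each of the 24 tested genes in every library, in CPM on a log axis, with the 4 groups in separate columns per gene and 3 panels by role; libraries with 0 reads are drawn open at 0.05. Rnf17, Tdrd12 and Tex19.1 lie highest, and the libraries without LIF stand apart from those with LIF for most genes, downward at Sohlh2, Tex19.1 and Tdrd12 and upward at Mael and Mov10l1.

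The first comparison asked what happened to these transcripts when LIF was absent for 5 days. Sycp1, Sycp2 and Sycp3 of the synaptonemal complex and the piRNA factors Mael, Mov10l1, Ddx4 and Tdrd5 rose from low levels, while Rnf17, Tdrd12, Tex19.1 and Stag3, 4 of the 5 most abundant transcripts on the list, fell. Of the 24 tested genes, 12 rose (10 of them at least 2-fold), 7 fell (6 at least 2-fold) and 5 were not called. Of all 10311 tested genes, 1712 rose and 1750 fell at least 2-fold. Sycp2, Ddx4 and Tdrd5, which rose, were tested only through their libraries without LIF, so the counts are descriptions only. The called share of 79.2% stands beside 68.4% of all tested genes in this comparison (3509 higher, 3547 lower), so being called is not particular to the list. The median log2 fold change of the 24 was 0.55, against -0.02 over all tested genes. Over the 20 genes with a mean of at least 1 CPM in the 8 libraries, the count was 10 higher and 6 lower with a median of 0.18. The summed level of the 34 genes went the other way, from 869.9 and 868.0 CPM with LIF to 402.0 and 412.9 without, with those 4 abundant genes among the ones that fell.

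Of the 8 tested meiotic chromosome genes, 4 rose without LIF, 1 fell and 3 were not called. Sycp3, which encodes the axial element protein, stood at 4.33 and 6.47 CPM with LIF and at 11.1 and 9.95 CPM without. Both libraries without LIF lay above both with it, and the fold was 2.01 (log2 1.01, SE 0.21, edgeR adjusted p = 1.4e-04). Its opposite-strand neighbour Chpt1 fell in the same comparison (log2 fold change -1.37, SE 0.15). Sycp1, the transverse filament of the synaptonemal complex, went from 1.68 and 1.76 to 3.5 and 3.95 CPM, 2.14-fold higher (SE of log2 0.31, edgeR adjusted p = 0.003). Sycp2, the partner of SYCP3 in the axis, had 1 read in each library with LIF and 24 and 16 without. The ratio of its summed reads was 20.8, with an exact 95% interval of 5.40 to 178 that covers counting error only. Smc1b, the meiotic form of a cohesin ring subunit, was 15.9 and 14.8 CPM with LIF and 21.2 and 23.3 without, a rise of 1.43-fold (edgeR adjusted p = 0.001).

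The other cohesin gene on the list went down. Stag3 read 106 and 107 CPM with LIF and 46.0 and 49.1 CPM without, 2.25-fold lower (log2 -1.17, SE 0.08, edgeR adjusted p = 8.5e-13). The 2 meiosis-specific cohesin genes thus moved in opposite directions. Tex15 gave 77.7 and 76.5 CPM with LIF and 67.8 and 71.2 without, a log2 difference of -0.15 (SE 0.08) that was not called (adjusted p = 0.085). Prdm9, the histone methyltransferase that places recombination hotspots, gave -0.35 (SE 0.25, adjusted p = 0.23), a call that passed without WT LIF replicate 1 (-0.66, adjusted p = 0.040) among alternatives from 0.040 to 0.96. Tex11, an X-linked crossover factor, gave -0.53 (SE 0.28, adjusted p = 0.095). Hormad1, an axis protein, and Zcwpw1, a reader of the marks that PRDM9 leaves, were not tested. They had 15 and 6 accession-specific reads over the 8 libraries.

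Of the 8 tested piRNA genes, 5 rose without LIF, 2 fell and 1 was not called. Mael, whose protein acts in piRNA biogenesis and transposon silencing, went from 1.85 and 1.06 CPM with LIF to 10.1 and 12.4 CPM without, 7.30-fold higher (log2 2.87, SE 0.27, edgeR adjusted p = 5.2e-10). Mov10l1, the helicase that feeds precursors to PIWI proteins, went from 3.97 and 4.12 to 12.8 and 13.0 CPM, 3.18-fold higher (SE of log2 0.20, edgeR adjusted p = 5.2e-08). In both genes the groups were far apart relative to the replicate spread. Ddx4, the germ cell helicase Vasa, stood at 0.265 and 0.353 CPM with LIF and 3.67 and 3.0 without, 10.8-fold higher (SE of log2 0.52), given without a p because it was tested only through its libraries without LIF. Tdrd5, a tudor protein of the granule, had 5 and 0 reads with LIF and 22 and 16 without (log2 fold change 2.93, SE 0.63), and the same holds for it. Its log2 fold change was 7.21 without WT LIF replicate 1, which left a group with no read, and 2.18 without WT LIF replicate 2. Piwil2, the PIWI protein MILI, rose less, from 10.4 and 8.94 to 14.7 and 14.7 CPM (1.505-fold, edgeR adjusted p = 4.5e-04).

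The 2 most abundant piRNA genes fell. Tdrd12 went from 277 and 280 CPM with LIF to 46.9 and 40.9 without, 6.28-fold lower (log2 -2.65, SE 0.07, edgeR adjusted p = 2.3e-21). Rnf17 went from 193 and 193 to 84.6 and 93.8 CPM, 2.17-fold lower (SE of log2 0.06, edgeR adjusted p = 1.3e-14). Neither gene's groups came near each other. Asz1, a mitochondrial membrane protein of the pathway, had 9 and 8 reads with LIF and 3 and 4 without (log2 difference -1.19, SE 0.61, adjusted p = 0.088). Tdrd9, a helicase partner of PIWI proteins, was not tested and gave 13 reads in the LIF libraries against 3 in those without, 4.16 times lower (interval 1.14 to 22.8).

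Of the 8 tested germ cell factors, 3 rose without LIF, 4 fell and 1 was not called. Sohlh2, a bHLH transcription factor of differentiating germ cells, fell from 46.2 and 48.9 CPM to 5.98 and 6.14, 7.84-fold (log2 -2.97, SE 0.12, edgeR adjusted p = 2.4e-17). Tex19.1 fell from 89.4 and 79.0 to 29.5 and 25.8 CPM, 3.03-fold (edgeR adjusted p = 2.2e-14). Stk31, a tudor and kinase-like protein, fell from 25.3 and 25.6 to 13.6 and 15.5 CPM, 1.77-fold (edgeR adjusted p = 8.8e-07). Dazl, a translational regulator, had 9 and 12 reads with LIF but 2 and 1 in its absence, 6.72 times lower (interval 2.01 to 35.2). Its call (edgeR adjusted p = 0.005) was lost without WT no LIF replicate 1 (0.056), with a range of 0.001 to 0.056 over the alternatives.

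Others of this group rose without LIF. Dnd1, which protects germ cell messages and primordial germ cells, went from 3.80 and 5.29 to 11.6 and 9.82 CPM, 2.43-fold higher (log2 1.28, SE 0.20, edgeR adjusted p = 4.6e-06). Taf7l, a TFIID subunit of germ cells, went from 0.79 and 0.94 to 4.35 and 4.5 CPM, 5.08-fold higher (SE of log2 0.36, edgeR adjusted p = 2.4e-06). Brdt, a testis bromodomain protein, had 11 and 5 reads with LIF and 18 and 17 without. The rise of Brdt (log2 1.19, SE 0.45, edgeR adjusted p = 0.021) was lost in DESeq2 (0.11), without WT LIF replicate 2 (0.13) and without WT no LIF replicate 2 (0.15), within alternatives from 0.015 to 0.15. Slc25a31, a mitochondrial ADP/ATP carrier of meiotic cells, had 4 and 2 reads with LIF and 9 and 7 without and was not called (adjusted p = 0.055). It passed with RLE factors (0.048) and with 1-accession genes only (0.047), of alternatives up to 0.18. Tex101, a sperm surface protein that was not tested, gave 2 reads in the LIF libraries against 15 in those without, 7.81 times higher (interval 1.82 to 70.4). Nanos3, an RNA-binding protein of primordial germ cells, gave 1 and 0.

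Promoter sequence was read for the genes above because PRC1.6 is known to reach germline genes through the E2F6 element TCCCGC and the E-box CACGTG. Both strands of the RefSeq promoter (build GRCm38.p6, 250 bases before to 50 after the start) were searched. Matches of the 2 motifs did not overlap in the promoters of the listed genes. A promoter was found for 28 of the 34 genes, and the first listed start was used for each. Of these, 5 are printed to show the range, in lower case on the gene's strand with every match to either motif in capitals. They are the 2 genes of smallest adjusted p in each direction without LIF among tested 1-accession genes, and the gene that fell with the most matches. Tdrd12 and Sohlh2 fell, Mael and Mov10l1 rose, and Stag3, which holds both motifs, fell.
Tdrd12 promoter, chr7:35537666-35537965, minus strand: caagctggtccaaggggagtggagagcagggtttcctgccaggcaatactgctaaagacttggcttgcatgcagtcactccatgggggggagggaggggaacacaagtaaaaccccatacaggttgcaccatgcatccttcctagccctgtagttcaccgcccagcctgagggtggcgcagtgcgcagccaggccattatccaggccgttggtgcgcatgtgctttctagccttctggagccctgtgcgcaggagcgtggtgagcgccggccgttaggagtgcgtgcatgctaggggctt
Sohlh2 promoter, chr3:55181794-55182093, plus strand: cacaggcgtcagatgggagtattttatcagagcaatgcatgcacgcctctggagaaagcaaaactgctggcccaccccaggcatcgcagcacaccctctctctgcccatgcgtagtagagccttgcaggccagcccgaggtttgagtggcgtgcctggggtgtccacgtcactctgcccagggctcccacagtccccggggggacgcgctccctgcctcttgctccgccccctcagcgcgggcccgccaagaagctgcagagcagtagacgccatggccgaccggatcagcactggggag
Mael promoter, chr1:166238695-166238994, minus strand: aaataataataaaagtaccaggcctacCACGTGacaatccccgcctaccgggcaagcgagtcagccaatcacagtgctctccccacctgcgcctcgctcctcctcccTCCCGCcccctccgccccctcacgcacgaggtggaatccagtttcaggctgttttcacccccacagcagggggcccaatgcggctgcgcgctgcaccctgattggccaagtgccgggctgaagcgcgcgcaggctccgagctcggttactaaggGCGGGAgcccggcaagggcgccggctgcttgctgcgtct
Mov10l1 promoter, chr15:88982744-88983043, plus strand: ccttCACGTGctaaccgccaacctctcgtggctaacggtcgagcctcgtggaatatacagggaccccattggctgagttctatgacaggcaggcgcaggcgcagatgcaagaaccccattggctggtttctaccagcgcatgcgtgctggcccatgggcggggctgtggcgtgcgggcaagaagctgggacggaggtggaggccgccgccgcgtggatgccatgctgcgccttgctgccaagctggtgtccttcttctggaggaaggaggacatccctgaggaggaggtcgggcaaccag
Stag3 promoter, chr5:138280259-138280558, plus strand: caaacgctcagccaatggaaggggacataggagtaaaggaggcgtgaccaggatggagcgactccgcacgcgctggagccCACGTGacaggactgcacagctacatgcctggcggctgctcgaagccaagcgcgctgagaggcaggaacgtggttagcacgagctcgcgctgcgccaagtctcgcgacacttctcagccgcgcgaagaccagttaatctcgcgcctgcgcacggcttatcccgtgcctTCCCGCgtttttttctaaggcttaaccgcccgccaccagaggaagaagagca
Of the 28 promoters, 14 held an E-box and 12 an E2F6 element (42.9%), against 7.24% and 20% of the first starts of all 27025 genes in the table and 10.7% and 37.3% of those of tested genes. Neither was found in 9. Of 10 genes that rose without LIF and have a promoter, 9 held at least 1 of the motifs: Brdt, Ddx4, Mael, Mov10l1, Smc1b, Sycp1, Sycp3, Taf7l and Tdrd5, with Sycp2 as the exception. Of 6 that fell, 3 did (Stag3, Stk31 and Tex19.1) and 3 did not (Dazl, Sohlh2 and Tdrd12). Ddx4, Tdrd5 and Sycp2 were tested only through their libraries without LIF, so these counts are descriptions only. A link between motif and direction was not tested. Over all tested genes with a promoter, 45.7% of those higher and 41.0% of those lower without LIF held at least 1. The median number of CpG pairs in the 300 bases was 20 for the listed genes and 7 for all genes in the table. No such median is given for tested genes alone, so whether the difference is particular to the list was not tested. A match of letters is a description of the window, and no binding or methylation was measured.

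**Figure D2:**
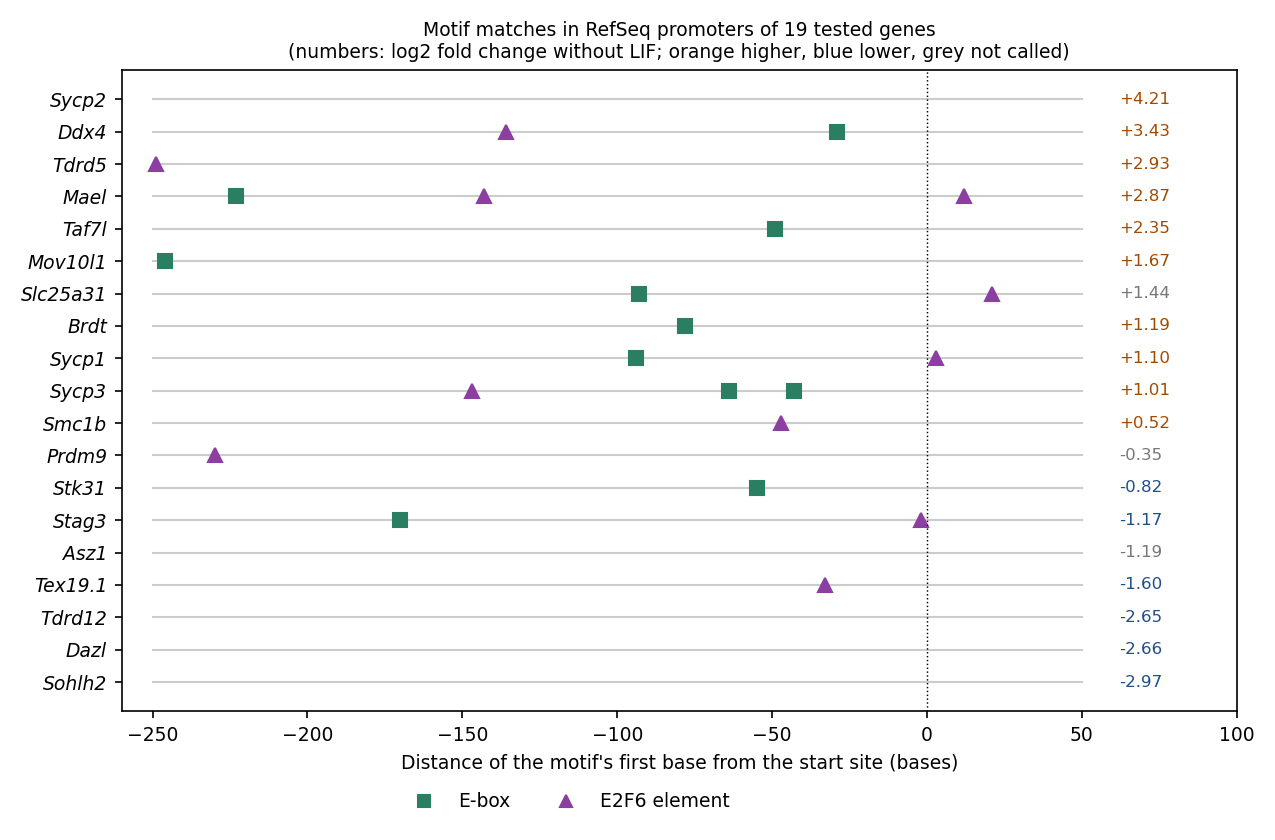
Position of each E-box (square) and E2F6 element (triangle) from 250 bases before to 50 after the start of 19 tested genes with a promoter entry, ordered by log2 fold change without LIF, which is printed at the right of each line. The genes that rose hold a motif in all cases but Sycp2, and the lines of Tdrd12, Dazl and Sohlh2 at the bottom are empty. Sycp2, Ddx4 and Tdrd5 were tested only through their libraries without LIF.

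The second comparison asked what changed after 24 h with dTAG in the OCT4-FKBP line. The clearest changes were a large fall of Tdrd12, smaller falls of Smc1b and Tex15 and a rise of Dnd1. Rnf17 and Sohlh2 were not called, with log2 differences of 0.00 and 0.04. Of the 24 tested genes, 5 rose, 6 fell and 13 were not called. The called share of 45.8% lay near the background of 40.5% of all tested genes (20.1% higher, 20.3% lower), and the median log2 fold change was 0.04, beside 0.00 over all genes. The number that rose was 1 in DESeq2, and 1 to 5 when single libraries were left out. The number that fell was 5 or 6 when single libraries were left out.

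Tdrd12 fell from 137 and 135 CPM in DMSO to 37.7 and 39.2 with dTAG, 3.54-fold lower (log2 -1.83, SE 0.08, edgeR adjusted p = 1.3e-16). It was the strongest change of the list at 24 h by adjusted p. Rnf17, in the same pathway, read 307 and 305 CPM in DMSO and 308 and 306 with dTAG (log2 difference 0.00, SE 0.06, adjusted p = 0.98). Piwil2 fell from 85.6 and 88.3 to 71.4 and 66.1 CPM, 1.27-fold (edgeR adjusted p = 0.001). Ddx4 had 1 and 8 reads in DMSO and 16 and 9 with dTAG (log2 1.49, SE 0.58, edgeR adjusted p = 0.041). That call was lost in DESeq2 (0.13), with a replicate block (0.055), and without DMSO replicate 1 (0.26), dTAG replicate 1 (0.34), WT no LIF replicate 1 (0.064) or replicate 2 (0.061), of alternatives from 0.019 to 0.34; without DMSO replicate 2 the log2 value was 3.17. Mael, Mov10l1, Asz1 and Tdrd5 gave log2 differences of 0.27, 0.25, 0.55 and 0.02 (SE 0.50, 0.28, 0.34 and 1.86) and were not called. Tdrd9 had 13 reads in DMSO and 10 with dTAG.

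Of the 8 tested meiotic chromosome genes, 3 fell with dTAG (Smc1b, Tex15 and Stag3), 1 rose (Sycp2) and 4 were not called. Of all tested genes, 20.1% were higher and 20.3% lower. Smc1b went from 21.5 and 22.1 CPM to 8.86 and 12.4, 2.05-fold lower (log2 -1.04, SE 0.15, edgeR adjusted p = 2.0e-06). Tex15 went from 80.7 and 78.1 to 51.8 and 45.5 CPM, 1.63-fold lower (SE of log2 0.08, edgeR adjusted p = 8.6e-08). Stag3 went from 80.3 and 89.9 to 64.1 and 61.0 CPM, 1.37-fold lower (edgeR adjusted p = 4.3e-05). For each of these the dTAG libraries lay below both DMSO libraries. Sycp3, Prdm9, Sycp1 and Tex11 gave -0.30, -0.06, 0.56 and 0.03 (SE 0.23, 0.22, 0.33 and 0.30) and were not called. For Sycp2, 1 read in the DMSO libraries stood against 9 under dTAG, 9.16 times higher (interval 1.27 to 402). Its call (edgeR adjusted p = 0.033) was lost in DESeq2 (0.14) and without DMSO replicate 2 (0.36), dTAG replicate 1 (0.078) or 2 (0.14), WT no LIF replicate 1 (0.059) or 2 (0.059), of alternatives from 0.026 to 0.36. Without DMSO replicate 1, which held that read, its log2 value was 5.33.

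Dnd1 rose from 2.11 and 1.85 CPM in DMSO to 7.33 and 6.65 with dTAG, 3.57-fold (log2 1.84, SE 0.27, edgeR adjusted p = 3.2e-06). Slc25a31 had 4 and 9 reads in DMSO and 20 and 12 with dTAG (log2 1.31, SE 0.48). No p is given because it was tested only through its dTAG libraries. Its place among the 5 genes that rose is a description only. That place was lost in DESeq2 and without DMSO replicate 1 or 2, dTAG replicate 1 or WT no LIF replicate 2. Tex19.1 was 123 and 129 CPM in DMSO and 151 and 138 with dTAG, 1.14-fold higher (edgeR adjusted p = 0.038), lost in DESeq2 (0.10) and without DMSO replicate 1 (0.23) or 2 (0.078) or dTAG replicate 1 (0.38), of alternatives from 0.005 to 0.38. Stk31 went from 50.4 and 53.6 to 40.1 and 43.1 CPM, 1.25-fold lower (edgeR adjusted p = 0.006), lost in DESeq2 (0.065) and without DMSO replicate 2 (0.093) or dTAG replicate 1 (0.084), of alternatives from 0.002 to 0.093. Sohlh2 read 37.9 and 37.6 CPM in DMSO and 39.4 and 38.3 with dTAG (log2 difference 0.04, SE 0.09, adjusted p = 0.76). Taf7l gave 1.01 (SE 0.45, adjusted p = 0.078), which passed without dTAG replicate 2 (0.049) among alternatives from 0.049 to 0.53. Brdt and Dazl gave 0.79 and -0.47 (SE 0.50 and 0.51) and were not called. Nanos3, not tested, gave 2 reads in the DMSO libraries against 15 under dTAG, 7.64 times higher (interval 1.78 to 68.8).

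**Figure D3:**
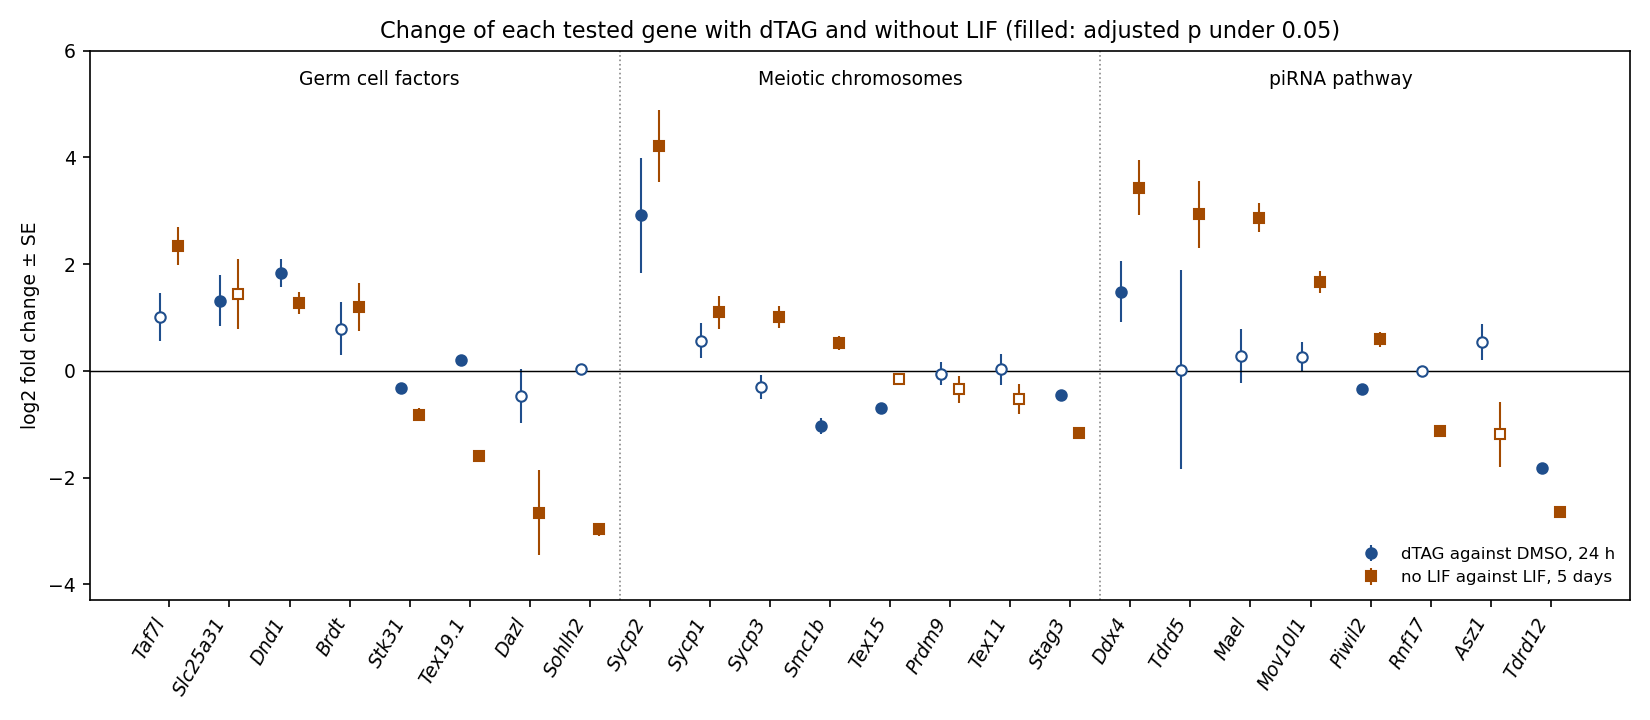
Log2 fold change of each of the 24 tested genes with its standard error, for dTAG against DMSO (circles) and no LIF against LIF (squares), grouped by role; filled symbols passed an adjusted p of 0.05. Tdrd12 lies well below 0 in both, at -1.83 and -2.65, while Sohlh2 and Rnf17 lie at 0.04 and 0.00 with dTAG and at -2.97 and -1.12 without LIF.

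The third comparison set the responses side by side. They use separate control libraries, but differ in line and in duration (24 h and 5 days). A difference between the 2 responses therefore cannot be assigned to the treatments alone. In all, 9 of the 24 genes (37.5%) were called in both, against 31.4% of all tested genes, and the dTAG calls of Ddx4, Sycp2, Stk31 and Tex19.1 among them were lost in 3 to 6 alternatives each, given above: Ddx4, Dnd1 and Sycp2 rose in both, Stag3, Stk31 and Tdrd12 fell in both, Piwil2 and Smc1b fell with dTAG and rose without LIF, and Tex19.1 rose with dTAG and fell without LIF. The difference between responses, tested as a contrast in the same fit, was called for 13 of the 24 genes (54.2%, against 55.0% of all tested genes, with 26.4% higher and 28.6% lower). It was positive, with the no LIF response above the dTAG response, for 6 genes. These were Mael (log2 difference 2.59, SE 0.61, edgeR adjusted p = 8.2e-04), Smc1b (1.56, SE 0.20, 2.6e-07), Mov10l1 (1.42, SE 0.35, 0.001), Sycp3 (1.31, SE 0.31, 9.0e-04), Piwil2 (0.93, SE 0.16, 1.9e-05) and Tex15 (0.55, SE 0.11, 2.0e-04). It was negative for 7, of which Sohlh2 (-3.01, SE 0.16, edgeR adjusted p = 1.1e-14), Tex19.1 (-1.79, SE 0.12, 1.1e-12) and Rnf17 (-1.12, SE 0.08, 1.3e-11) had the smallest p. Tdrd12, Stag3, Stk31 and Asz1 gave -0.83, -0.72, -0.50 and -1.74 (SE 0.11, 0.11, 0.15 and 0.70).

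Some of these differences of response turned on single libraries. The difference of Stk31 (edgeR adjusted p = 0.007) was lost in DESeq2 (0.064) and without WT no LIF replicate 1 (0.082), of alternatives from 0.005 to 0.082. That of Asz1 (0.038) was lost in DESeq2 (0.16) and without DMSO replicate 2 (0.11), dTAG replicate 1 (0.065) or 2 (0.078), WT LIF replicate 1 (0.069) or 2 (0.11) or WT no LIF replicate 1 (0.24), of alternatives from 0.026 to 0.24. Dnd1, which rose in both responses, gave a difference of -0.56 (SE 0.35, adjusted p = 0.19). Taf7l gave 1.33 (SE 0.62, edgeR adjusted p = 0.072) and was not called. Its call changed without dTAG replicate 1 (log2 1.77), and its log2 alternatives ran from 1.01 to 1.77. Ddx4 and Dazl gave 1.94 and -2.19 (SE 0.89 and 0.98). Neither was called in the main fit, and both calls changed in some alternatives. Over the alternatives their log2 values ran from 0.26 to 2.48 and from -2.83 to -0.97. No p is given for them. Ddx4 was tested only through its libraries without LIF and Dazl only through its DMSO libraries, and both groups enter this difference.

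The last comparison set the tagged line in DMSO against WT with LIF. The tag, the line's history, the DMSO and the culture cannot be told apart in it, and it shares its DMSO and LIF libraries with the comparisons above. Piwil2 differed most: it read 85.6 and 88.3 CPM in the tagged line and 10.4 and 8.94 in WT, 8.91-fold higher (log2 3.15, SE 0.11, edgeR adjusted p = 2.7e-17). The dTAG libraries, at 71.4 and 66.1 CPM, and the no LIF libraries, at 14.7 and 14.7 CPM, kept the lines apart. Of the 24 tested genes, 6 were higher and 4 lower in the tagged line, 41.7% called beside 40.6% of all tested genes (18.5% higher, 22.1% lower). Stk31 was 2.05-fold higher (edgeR adjusted p = 5.2e-09), Rnf17 1.59-fold (8.5e-10), Tex19.1 1.49-fold (1.2e-06) and Smc1b 1.42-fold (0.004). Asz1 was 2.39-fold higher (edgeR adjusted p = 0.020), a call lost in DESeq2 (0.12) and without DMSO replicate 1 (0.10) or WT LIF replicate 1 (0.14), of alternatives from 0.012 to 0.14.

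Tdrd12, 1 of 3 genes that fell in both treatments, was lower in the tagged line before treatment. Its 137 and 135 CPM in DMSO compare with 277 and 280 in WT with LIF, 2.04-fold lower (log2 -1.03, SE 0.06, edgeR adjusted p = 1.4e-12). Dnd1, which rose in both, was 2.28-fold lower there (edgeR adjusted p = 0.002). Stag3 was 1.25-fold lower (edgeR adjusted p = 0.001), lost without DMSO replicate 1 (0.091) within alternatives from 9.0e-04 to 0.091. Sohlh2 was 1.26-fold lower (edgeR adjusted p = 0.005), lost in DESeq2 (0.077) and without DMSO replicate 2 (0.089) within alternatives from 0.003 to 0.089. Prdm9 was not called (log2 0.49, adjusted p = 0.087) but passed without DMSO replicate 1 (0.027) or WT LIF replicate 2 (0.010), of alternatives from 0.010 to 0.63. Sycp3 was not called (0.39, adjusted p = 0.18) and passed without WT LIF replicate 2 (0.028), of alternatives from 0.028 to 0.82.

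**Figure D4:**
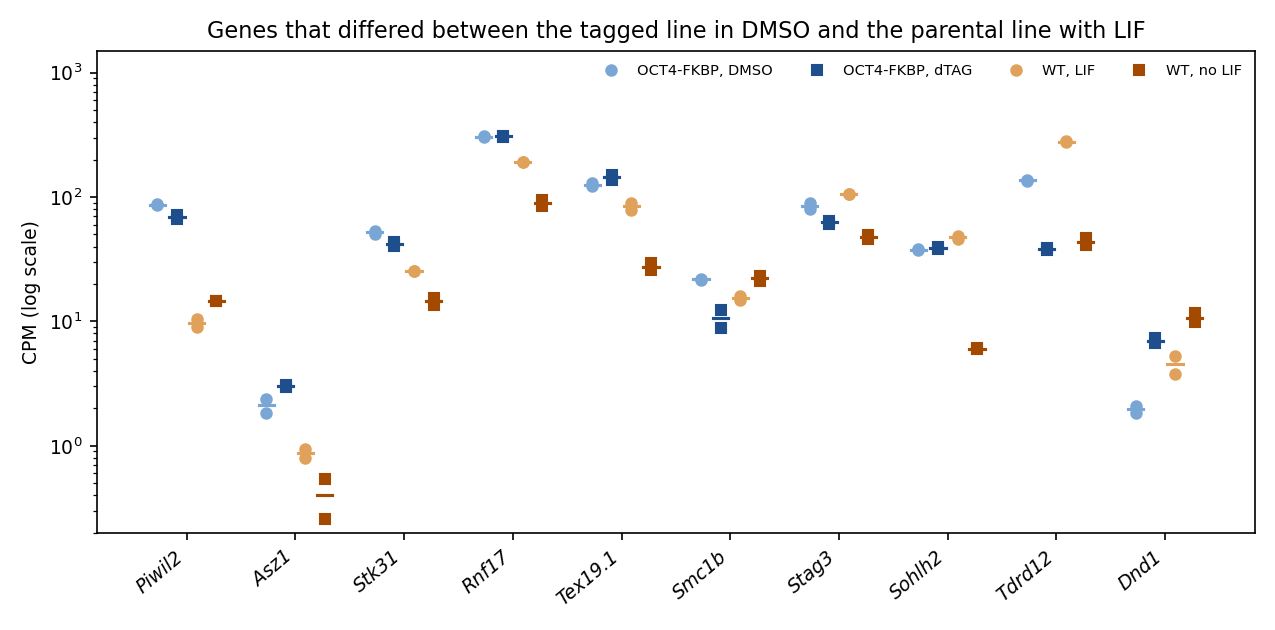
CPM in every library, on a log axis, of the 10 genes called between the tagged line in DMSO and WT with LIF, ordered from the highest to the lowest difference, with short bars at the group means. Piwil2 lies at 66.1 to 88.3 CPM in all 4 libraries of the tagged line and at 8.94 to 14.7 in all 4 of WT.

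Other germ cell genes were read from 4 lists chosen beside the 34. For comparison, 20.1% of all tested genes were higher and 20.3% lower with dTAG. Without LIF, 68.4% of all tested genes were called, 3509 of them higher and 3547 lower. Those lower made up 34.4% of all tested genes. Early germ cell factors (23 listed, 16 tested) were 8 lower and 3 higher with dTAG (68.8% called) and 11 lower and 3 higher without LIF (87.5% called), with medians of -0.30 and -1.47. Prdm14, a regulator of primordial germ cell fate and of naive ES cells, fell with dTAG from 119 to 44.8 CPM and without LIF from 107 to 6.52 CPM (group means). Dppa3, the maternal factor Stella, had log2 fold changes of -0.92 and -2.31 in the 2 comparisons (SE 0.06 and 0.07). Rpl10l, a retrogene copy of a ribosomal protein gene whose reads may be shared with its parent, had -0.90 and -4.26. Lin28a, an RNA-binding protein needed in germ cell precursors, rose in both (2.42 and 4.43), as did Meioc, a regulator of meiotic prophase (2.03, SE 0.18, and 1.85, SE 0.11). Dmrt1, a gonad and germ cell transcription factor, rose with dTAG (0.56), and Prdm1, which sets germ cell fate, rose without LIF (0.81).

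Other meiosis genes (34 listed, 22 tested) were 1 higher and 6 lower with dTAG (31.8% called), and 8 higher and 8 lower without LIF (72.7% called), with medians of -0.19 and 0.25. Of the 8 higher without LIF, 3 (Hfm1, Meiob and Terb1) were tested only because both libraries without LIF passed the filter. The synaptonemal complex gene Syce1, named after its values were seen, fell without LIF (-1.24, SE 0.17, edgeR adjusted p = 4.0e-07). Hsf2bp, a partner of BRCA2 in meiosis, fell in both (-0.83 and -2.80, SE 0.07 and 0.07), as did Ccnb1ip1, the crossover factor HEI10 (-0.40 and -1.54). Cntd1, another crossover factor, fell with dTAG (-0.84) and Kash5, which ties telomeres to the nuclear envelope, rose with it (1.33). Rec114, a factor of double-strand break formation, fell without LIF from 38.8 to 1.12 CPM (log2 -5.05, SE 0.20). Mnd1, a recombinase cofactor, rose without LIF from 15.9 to 48.5 CPM. Also higher without LIF was 4930447C04Rik, the synaptonemal complex gene known as Six6os1 (2.44, SE 0.18). Terb1, a telomere attachment factor, had 0 and 2 reads with LIF and 35 and 14 without.

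Other piRNA genes (13 listed, 9 tested) were 2 higher and 2 lower with dTAG (44.4% called). Without LIF, 2 were higher and 5 lower (77.8% called). The called shares lay near those of all tested genes, and the medians were -0.14 with dTAG and -1.05 without LIF. Morc1, which represses transposons in germ cells, fell from 254 to 60.8 CPM with dTAG and from 303 to 15.1 CPM without LIF (log2 -2.06 and -4.34, SE 0.07 and 0.08). Gpat2, a mitochondrial piRNA factor, rose with dTAG (0.50, SE 0.10) and fell without LIF (-2.26, SE 0.14). Tdrd3 rose with dTAG (0.46) and Piwil1, the PIWI protein MIWI, fell (-0.65). Without LIF, the RNA helicase gene Ddx25 rose from 5.40 to 33.6 CPM and Exd1, a piRNA biogenesis factor, by 0.56 on the log2 scale, while Pnldc1, the piRNA trimmer, fell (-1.05).

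The list of DNA methylation and PRC1.6 genes (24 listed, 14 tested), which also holds the demethylases Tet1 and Tet2 and subunits shared with other complexes such as Wdr5, had 4 genes lower with dTAG (28.6% called), and 2 higher and 9 lower without LIF (78.6% called), with medians of -0.26 and -0.37. Tet1, a DNA demethylase, went from 1589 to 984 CPM with dTAG and from 1368 to 666 CPM without LIF (log2 -0.69 and -1.04, SE 0.06 and 0.06). Wdr5 and Hdac2, chromatin subunits found in several complexes, fell in both (-0.71 and -0.99 for Wdr5, -0.51 and -0.42 for Hdac2). Dnmt3b, a de novo DNA methyltransferase with 9 accessions, rose without LIF from 0.456 to 6.64 CPM of accession-specific reads (3.82, SE 0.39), and Ring1, a PRC1 ubiquitin ligase, rose (0.42, SE 0.14). Mga, the PRC1.6 subunit that binds the E-box with MAX, was added after its values were seen: it fell in both (-0.31 and -0.58, SE 0.12 and 0.12, edgeR adjusted p = 0.036 and 9.3e-05). E2f6, Pcgf6, L3mbtl2, Dnmt3a and Dnmt3l had too few accession-specific reads to be tested.

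**Figure D5:**
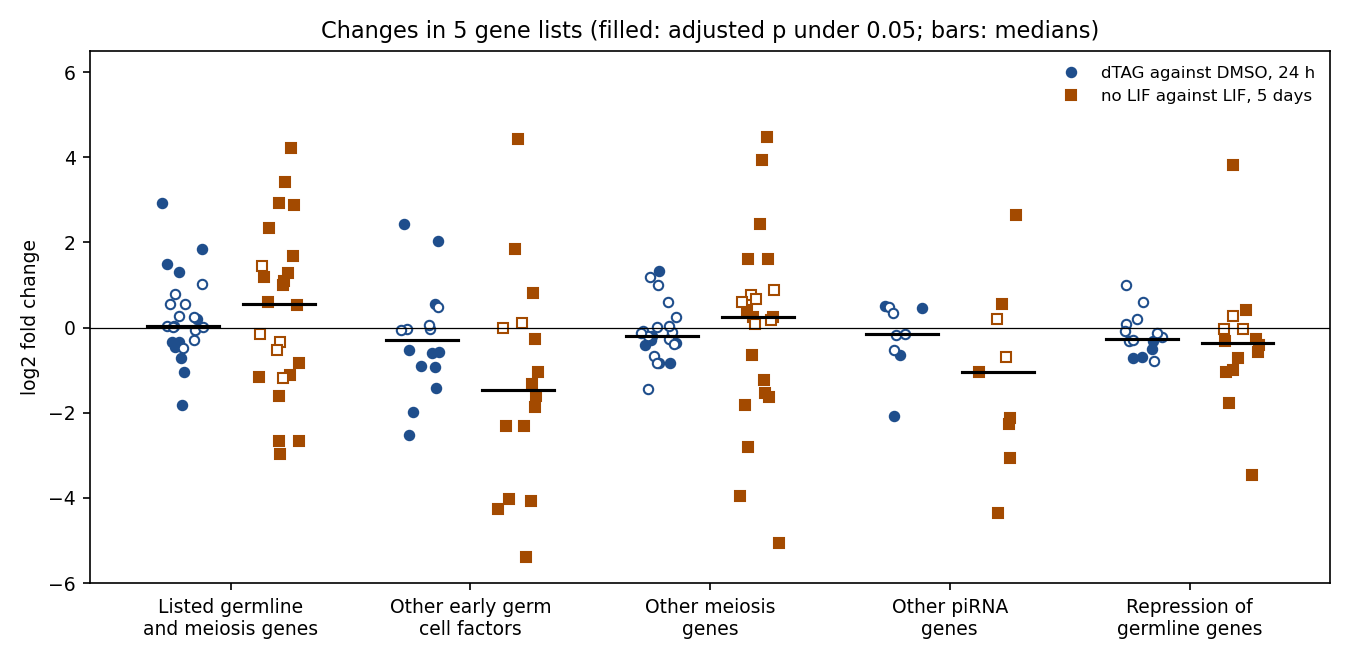
Log2 fold change of every tested gene in the 34-gene list and the 4 other lists, for dTAG against DMSO (circles) and no LIF against LIF (squares); filled symbols passed an adjusted p of 0.05 and bars mark medians. The early germ cell and other piRNA lists have medians of -1.47 and -1.05 without LIF, the 34-gene list 0.55.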

How the data were processed

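Each library's file holds raw counts, deposited by the authors, for RefSeq transcript accessions. The submitters' processing notes name HISAT2, HTSeq and mm9, with no versions or strand setting. HTSeq's summary lines stayed out of library sizes and tests; ambiguous reads were 42.5% of counted plus ambiguous reads. Of 41565 accessions, 41325 were named through the RefSeq table (GRCm38.p6, used for names and its own promoters only), 126 through GENCODE, and 114 kept their accession. Counts were summed per symbol. Groups were compared with the quasi-likelihood test (glmQLFit, glmQLFTest) of edgeR 4.0.16 under R 4.3.3, after filterByExpr and TMM, in all 8 libraries (4 residual degrees of freedom, biological coefficient of variation 4.43%). A standard error is |log2 fold change| over the root of the F statistic. The test was checked on simulated data. RPKM uses the longest GENCODE transcript linked to a counted accession. DESeq2 1.42.0, other scalings and filters, a replicate block and leaving out each library were alternatives. Replicates differed by more than sampling noise (chi-square per gene from 1.85 to 4.94). Intervals and ratios of few reads are exact at 95% and cover counting error only. The 34 genes, the other lists and the tests were chosen with earlier results of these data known. All 34 genes are accounted for, and the other lists' named genes are up to 3 of smallest adjusted p each way in the dTAG and no LIF comparisons.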

Additional observations from a re-analysis of the deposited data

How the results depend on the processing

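Depth limits the genes under about 1 CPM most, as their values rest on a few reads. Calls that changed with the library left out are given beside each gene. They also include calls of well-counted genes, namely Stk31, Tex19.1, Sohlh2 and Stag3. Single-gene values kept direction and side of the threshold in 1437 cases, lost a call in 43, gained one in 13 and changed sign in 24, none of the last called in either setting. The number of listed genes higher with dTAG, 5, was 1 in DESeq2, 3 with a mean of at least 1 CPM, 2 with at least 5 CPM in 2 libraries and 3 with only the libraries compared. The number higher without LIF, 12, was 6 with at least 5 CPM in 2 libraries, where fewer genes are tested. All genes lower in the tagged line numbered 2283, or 1400 in DESeq2 and 1462 to 2226 when single libraries were left out; the cause was not tested. Leaving out each library gave 1 to 5 higher and 5 to 6 lower with dTAG, 11 to 12 and 6 to 8 without LIF, 5 to 8 and 3 to 4 between lines, and 6 to 8 and 5 to 7 for the difference of responses. A group left with 1 library is assumed to vary like the others. The replicate numbers do not pair libraries (correlations of same-numbered deviations from -0.00082 to 0.050), and a fit with the replicate block gave 4 higher and 6 lower with dTAG and 12 and 7 without LIF. DESeq2 gave no adjusted p for 2 values of listed genes.

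Log2 values that changed sign are given as ranges over the libraries left out. With dTAG they were Dazl (-1.69 to 0.17), Mov10l1 (-0.075 to 0.51), Prdm9 (-0.23 to 0.22, with 0.05 without dTAG replicate 1), Rnf17 (-0.0056 to 0.010, with -0.0040 without dTAG replicate 1), Tdrd5 (-2.36 to 2.35, with -0.57 without DMSO replicate 1 and -0.0011 with the replicate block) and Tex11 (-0.19 to 0.21, with -0.04 without DMSO replicate 1). Between lines they were Brdt (-0.32 to 0.36), Ddx4 (-1.01 to 1.21), Sycp1 (-0.12 to 0.39), Sycp2 (-3.14 to 0.46), Taf7l (-0.21 to 0.063) and Tdrd5 (-4.26 to 2.31). For the difference of responses they were Prdm9 (-0.60 to 0.034), Slc25a31 (-0.18 to 0.53) and Sycp2 (-1.11 to 2.49).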

Other observations

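The single markers here were picked after their values were seen. Of the oocyte markers, Zp1, Zp2 and Bmp15 had 4 or 5 reads over the 8 libraries. Zp3, a zona pellucida gene, read 17.1 and 16.9 CPM in DMSO, 6.35 and 6.21 with dTAG, 14.2 and 12.2 in WT with LIF and 0.512 and 0.545 without. It fell in both comparisons (log2 -1.43, SE 0.17, and -4.63, SE 0.28; edgeR adjusted p = 6.6e-08 and 8.3e-14). Ldhc, the lactate dehydrogenase of spermatocytes, went from 4.68 and 4.23 CPM with LIF to 1.11 and 0.682 without (log2 -2.23, SE 0.35, edgeR adjusted p = 3.2e-06). Stra8, which starts meiosis, had 30 and 9 reads with LIF and 5 and 5 without, with its LIF replicates far apart. Wt1, a factor of the somatic gonad that other mesodermal tissues also express, went from 0.530 and 0.235 to 19.12 and 20.9 CPM without LIF (log2 5.58, SE 0.30). With dTAG, Wt1 had 1 read against 10 in DMSO. Of the other somatic gonad markers, Sox9 had 15 reads with LIF and 32 without, and was not called. Amh, Inha and Foxl2 had 7, 15 and 14 reads with LIF and 6, 7 and 12 without. Stra8 and Wt1 passed the filter only through both libraries with LIF and without LIF respectively, so no p is given for them.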
